A study of Mus musculus with 117 samples.

Results

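The genes described here are 10 liver zonation genes: 6 that are transcribed mainly in hepatocytes around the central vein (Glul, Cyp2e1, Axin2, Lgr5, Tbx3 and Oat) and 4 that are transcribed mainly in hepatocytes around the portal vein (Gls2, Hal, Sds and Cdh1). They were listed by name, with earlier results of these data known. They are 10 of 21631 protein-coding genes on the 19 autosomes and chromosome X. Each gene was taken with 2 kb to either side, and its span was read as 200-bp bins. The 10 spans hold 1919 of 13168874 bins.

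Blood crosses the liver lobule from the portal vein to the central vein, and hepatocytes along that path do different work. Pericentral hepatocytes receive Wnt signals from endothelial cells of the central vein and, through beta-catenin and TCF factors, transcribe genes for glutamine synthesis and drug metabolism. Periportal hepatocytes break down amino acids and make glucose and urea.

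The data came from hepatocytes of female mice, 12 weeks old, of 9 inbred strains. Of these, CAST/EiJ, PWK/PhJ and WSB/EiJ derive from wild-caught mice, and C57BL/6J, 129S1/SvImJ, NOD/ShiLtJ, A/J, NZO/HlLtJ and DBA/2J are laboratory strains. For each strain, chromatin immunoprecipitation with sequencing (ChIP-seq) was done for 4 histone marks (H3K27ac, H3K27me3, H3K4me3 and H3K4me1) in 3 mice each, with 1 input library, 117 libraries in all. The labels name no treatment and no allele other than the strain. What was deposited is 1 chromatin state map per strain, in which every bin carries the number of 1 of 14 states; the mice of a strain are merged and the depth is unknown. State numbers serve as names, because the mark content of the states is not given in the sources used here. All spreads are between strains, which share ancestry, and none is between mice. A map merges hepatocytes of all zones, so a state present in some cells and a state present in all cells cannot be told apart.

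States 1 to 4 are read together below because they held most bins at the ends of genes that hepatocytes transcribe, and states 10, 12 and 13 because they held developmental regulators; both choices were made with earlier results of these data known. States 1 to 4 covered 7.45% of the genome on average and states 10, 12 and 13 covered 16.2%. Marker lists of liver cell types were read on states 1 to 4. Over all protein-coding genes, the test described below called 43.9% higher than the genome and 46.7% lower, and the median share was 6.92%. Because that class was chosen on genes hepatocytes transcribe, the hepatocyte list describes it and does not check the label. All 9 hepatocyte markers found had more of states 1 to 4 than the genome, with a median of 97.6% of the span, and Apoa1 and Cebpa were at 100% in every strain. None of 6 stellate cell markers and 2 of 8 Kupffer cell and leukocyte markers did, with medians of 0% and 0.0837%. Among endothelial markers 4 of 8 did, 3 were lower and 1, Clec4g, was not called, with a median of 22.5%. Lyve1 and Egfl7 were highest, at 85.5% and 91.98%. Tek, Cdh5 and Kdr were lowest, at 0.0952%, 0.567% and 0.926%. Of 6 bile duct markers 2 did, with a median of 5.45%, and Krt19 and Krt7 were at 0% in every strain. None of 8 developmental regulators did. The part of other cells in any value below was not tested.

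Upstream sequences were available for 5 of the 10 genes, from RefSeq on GRCm38 (mm10). Shown are the 250 bases before the annotated start of Cyp2e1 (chr7:140763569-140763818, plus strand), whose states differed most between strains, of Glul (chr1:153899679-153899928, plus strand) and Oat (chr7:132576399-132576648, minus strand), which also differed widely, and of Hal (chr10:93488518-93488767, plus strand), a periportal gene whose start was in state 1 in every strain. Each is written 5' to 3' along the gene's own strand. Capitals mark matches, on either strand, to CTTTGAA or CTTTGAT, the core that TCF and LEF factors bind, and to TATAAA, the TATA box. The TCF and LEF core contains CAAAG on the opposite strand, which is also the start of the HNF4A-type motif searched, CAAAGTCCA.
Cyp2e1: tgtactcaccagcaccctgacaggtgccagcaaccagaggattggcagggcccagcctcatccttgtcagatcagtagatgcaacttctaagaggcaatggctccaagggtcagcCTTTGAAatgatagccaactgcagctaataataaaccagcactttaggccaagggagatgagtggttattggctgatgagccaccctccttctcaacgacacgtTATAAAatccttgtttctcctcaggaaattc
Glul: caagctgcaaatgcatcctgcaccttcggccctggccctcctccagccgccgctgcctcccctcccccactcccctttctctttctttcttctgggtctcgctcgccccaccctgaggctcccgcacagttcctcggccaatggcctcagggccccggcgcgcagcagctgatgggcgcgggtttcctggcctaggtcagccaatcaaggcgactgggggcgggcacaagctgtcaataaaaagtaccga
Oat: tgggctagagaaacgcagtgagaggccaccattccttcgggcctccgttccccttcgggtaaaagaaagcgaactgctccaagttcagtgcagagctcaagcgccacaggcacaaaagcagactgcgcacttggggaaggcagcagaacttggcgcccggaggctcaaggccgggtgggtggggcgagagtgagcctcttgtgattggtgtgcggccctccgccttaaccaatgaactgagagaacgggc
Hal: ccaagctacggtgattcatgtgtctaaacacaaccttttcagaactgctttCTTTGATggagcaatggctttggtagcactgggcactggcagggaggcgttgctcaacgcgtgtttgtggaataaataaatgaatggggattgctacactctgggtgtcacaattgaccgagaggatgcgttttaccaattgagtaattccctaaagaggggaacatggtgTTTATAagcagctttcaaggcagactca

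Cyp2e1 had CTTTGAA at -135 to -129 and TATAAA at -31 to -26, counted from the start site. The periportal gene Hal also had a TCF and LEF core, CTTTGAT, at -199 to -193, and a TATA box on its minus strand at -28 to -23. No searched motif lay in the windows of Glul, Oat and Axin2, and CAAAGTCCA was in none of the 5. Among 32609 promoter windows of the same length, 7.50% held CTTTGAT or CTTTGAA, 12.4% held TATAAA and 0.386% held CAAAGTCCA. The GC content was 69.2% in Axin2, 64.8% in Glul, 60% in Oat, 48.8% in Cyp2e1 and 45.6% in Hal, beside a median of 52.4% over all windows. The ratio of observed to expected CpG was lowest in Cyp2e1, at 0.135, and highest in Axin2, at 0.860, beside a median of 0.378. These are matches of letters, not sites shown to be bound.

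The first comparison asked how much of each gene lay in states 1 to 4. Of the 10 genes, 9 had more than the genome share of the same strains and 1, Lgr5, had less (exact sign-flip permutation test, two-sided, over the 9 strains, Benjamini-Hochberg over all genes). Over all protein-coding genes the same test called 43.9% higher and 46.7% lower, so most genes pass it in some direction and the levels say more than the calls. The 4 periportal genes were covered by states 1 to 4 over 83.8% ± 3.98 of their spans on average (SD, n = 9 strains) and the 6 pericentral genes over 33.03% ± 7.41. The zone difference was -50.8 points ± 8.50, and the pericentral mean was the lower one in 9 of 9 strains. It ran from -66.6 to -41.9 points. The zones overlapped gene by gene, because Cdh1 lay below Glul, Cyp2e1 and Tbx3 on average. Without Cdh1 the difference was -65.0 points.

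**Figure D1:**
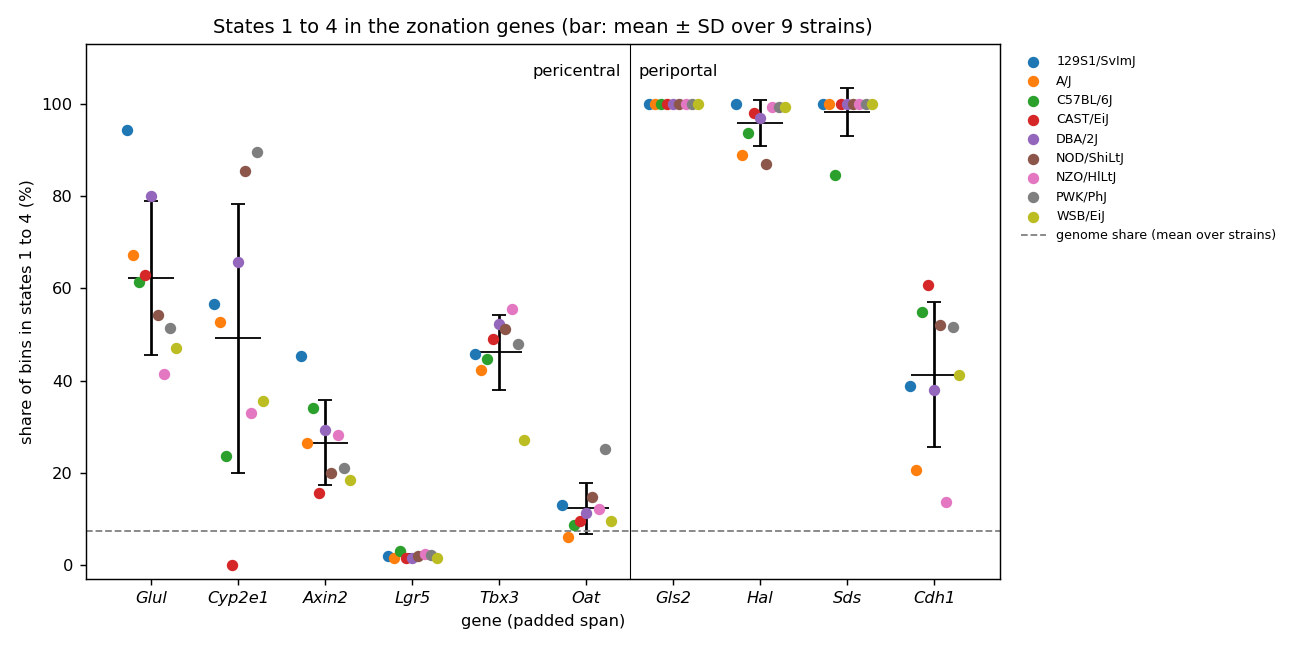
Share of each gene's bins in states 1 to 4 (vertical axis, percent) for the 10 zonation genes (horizontal axis). Points are the 9 strains, bars give the mean ± SD, and the dashed line is the mean genome share of 7.45%. Gls2, Hal and Sds sit near the top in nearly all strains, whereas Cyp2e1 runs from 0% to 89.5%.

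**Figure D2:**
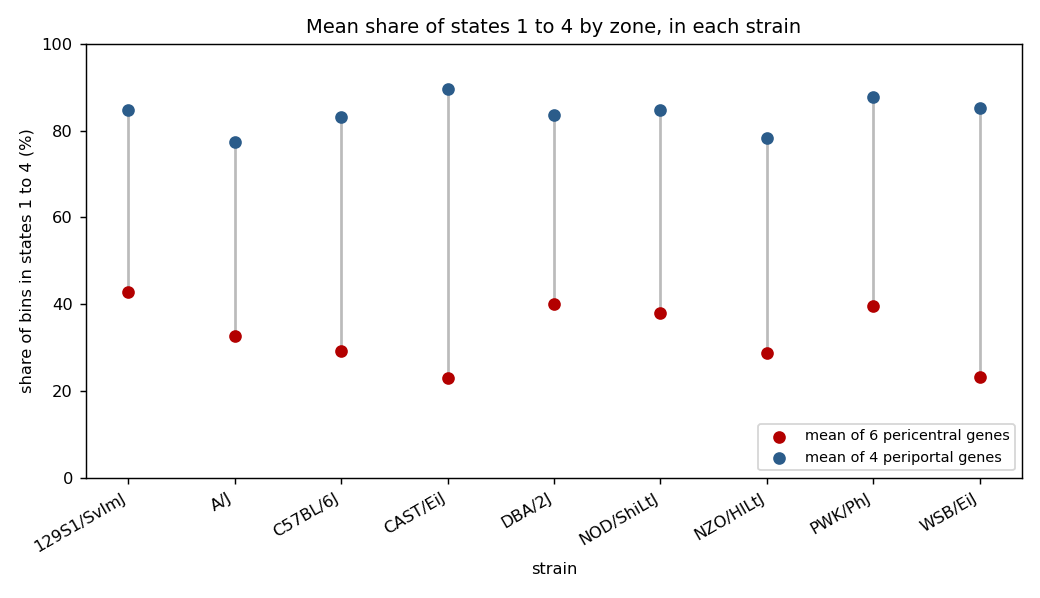
Mean share of bins in states 1 to 4 (vertical axis, percent) over the 6 pericentral genes (red) and the 4 periportal genes (blue) in each strain (horizontal axis), joined by a grey line. The blue point is above the red point in 9 of 9 strains, with means of 83.8% and 33.03% over the strains.

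Glul encodes glutamine synthetase, which fixes ammonia into glutamine in the last hepatocytes before the central vein. It lies at chr1:153899929-153909723. States 1 to 4 covered from 41.4% of its span in NZO/HlLtJ, through a median of 61.4%, to 94.3% in 129S1/SvImJ. The strains therefore spread widely, yet each was above its own genome share. The mean was 62.2% ± 16.6, which is 54.8 points above the genome (higher in 9 of 9 strains, exact sign-flip permutation test, adjusted p = 0.00474). The start of the gene did not take part in that spread. Every bin from 1 kb before to 2 kb after the start was in state 1 or 3 in all strains, and a block of 4000 bp around the start (chr1:153898401-153902400) was in states 1 to 4 in all of them. The strains parted in the stretch 4 to 9 kb after the start. There, state 4 filled 96% of the bins in 129S1/SvImJ and 64% in DBA/2J, whereas state 14, the state that fills most of the genome, took 100% in NZO/HlLtJ and PWK/PhJ and 96% in WSB/EiJ. NOD/ShiLtJ had state 9 in 32% of it. Just beyond the gene's far end the strains met again: states 1 to 4 held at least 80% of the bins 10 to 11 kb after the start in every strain.

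Cyp2e1 encodes a cytochrome P450 that oxidises ethanol and many small toxic molecules. It lies at chr7:140763819-140774990, and its states differed more between strains than those of any other of the 10 genes. States 1 to 4 covered 0% of its span in CAST/EiJ, a median of 52.6%, and 89.5% in PWK/PhJ; NOD/ShiLtJ was next highest at 85.5%. The mean of 49.1% ± 29.2 was higher than the genome share in 8 of 9 strains (exact sign-flip permutation test, adjusted p = 0.00909). No bin of the gene was in states 1 to 4 in all strains, although 89.5% of its bins were so in at least 1 strain. In the genome as a whole, 29.2% of the bins that were in states 1 to 4 in any strain were so in all.

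The other large part of Cyp2e1 was in states 5 and 7, which are rare elsewhere. These states covered 0.0581% of the autosomes and 0.968% of chromosome X, means over the strains. In Cyp2e1 they covered 81.6% in CAST/EiJ, 64.5% in C57BL/6J, 52.6% in NZO/HlLtJ, 50% in WSB/EiJ, 28.9% in 129S1/SvImJ, 23.7% in A/J and 17.1% in DBA/2J. NOD/ShiLtJ and PWK/PhJ had none. The mean of 35.4% was the second highest of 20665 autosomal protein-coding genes, after Hlx at 40.05%. With states 11 and 12 counted as well, it ranked 31, and without padding it ranked 6. The layout was ordered along the gene. From the start to 5 kb after it, states 1 and 3 held at least 96% of the bins in 129S1/SvImJ, A/J, DBA/2J, NOD/ShiLtJ and PWK/PhJ. State 5 held 88% of the same bins in CAST/EiJ, 72% in C57BL/6J, 44% in NZO/HlLtJ and 36% in WSB/EiJ. State 7 followed downstream in 7 strains. Its first bin lay between 5.18 kb (CAST/EiJ) and 8.18 kb (129S1/SvImJ) after the start, and its last bin ended at 8.18 to 11.4 kb. State 7 held 40% of the bins 6 to 10 kb after the start in 129S1/SvImJ, 50% in A/J, 55% in DBA/2J and at least 90% in the others with it. NOD/ShiLtJ and PWK/PhJ had no state 7, and their first bin of state 4 lay at 8.18 kb and 5.38 kb. State 4 was also found in 129S1/SvImJ, A/J and DBA/2J, first at 9.78, 9.18 and 6.38 kb. CAST/EiJ and NOD/ShiLtJ differed in 100% of the bins.

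Axin2 encodes a scaffold protein that helps to degrade beta-catenin and is itself switched on by Wnt signalling. It lies at chr11:108917828-108950783. Between strains, states 1 to 4 covered 15.7% (CAST/EiJ) to 45.4% (129S1/SvImJ) of its span, with a median of 26.5%. All strains were above the genome, by 19.04 points on average (9 of 9, exact sign-flip permutation test, adjusted p = 0.00474). The covered bins lay in separate blocks. In all strains a block of 3000 bp at the annotated start (chr11:108920001-108923000) and a block of 2200 bp inside the gene (chr11:108935001-108937200) were in states 1 to 4. Between and beyond them most of the span was in state 14, at 56.7% ± 9.98. Axin2 had no bin in states 5 and 7 or in states 10, 12 and 13.

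Lgr5 encodes a receptor for R-spondins, which raise Wnt signalling, and marks a few hepatocyte layers around the central vein. It is the longest of the 10 genes (chr10:115450314-115587780, 708 bins with its flanks, which also touch the coding gene A930009A15Rik). Only 1.41% to 2.97% of the span was in states 1 to 4, with a median of 1.84%. The mean of 1.91% ± 0.543 was below the genome share in 9 of 9 strains (exact sign-flip permutation test, adjusted p = 0.00474). State 14 covered 86.9% ± 0.839. The marked bins were gathered at the higher-coordinate end. Within 10 kb inside that end 80% to 92% of the bins were outside state 14. Of the bins further in, down to the lower-coordinate flank, 4.48% to 6.79% were. Neither figure includes the 2 kb flank beyond the higher-coordinate end. That end carried state 1 in 4 strains and state 8 in the other 5. Across the rest of the gene, 5 short stretches were outside state 14 in every strain, and state 6 was seen in 4 of them. The stretch at 122 to 123 kb from the lower-coordinate end was in state 4 in all of them (chr10:115572801-115573600).

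Tbx3 encodes a T-box transcription factor that is a Wnt target in the liver. It lies at chr5:119670534-119684724. Its share in states 1 to 4 was 27.2% in WSB/EiJ, 42.4% to 55.4% in the other 8 strains, with a median of 47.8%. WSB/EiJ thus stood apart from the rest while still above its genome share. The mean of 46.1% ± 8.17 was higher than the genome in 9 of 9 strains (exact sign-flip permutation test, adjusted p = 0.00474). The lower-coordinate end was in state 1 in 8 strains and state 3 in DBA/2J. Inside the first 6 kb from that end, state 5 filled 50% of the bins in WSB/EiJ, 33.3% in C57BL/6J, 26.7% in CAST/EiJ and 23.3% in 129S1/SvImJ. The other 5 strains had no state 5 there, and states 1 and 3 held at least 93.3% of those bins in them.

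Oat encodes ornithine aminotransferase, which moves ornithine out of the urea cycle towards glutamate. It lies at chr7:132557475-132576398 on the minus strand. It was the only one of the 10 genes with more of states 10, 12 and 13 than the genome; the other 9 had less. Over all protein-coding genes 18.4% were called higher and 70.6% lower for these states. With 5 kb of padding 7 were called lower, without Cyp2e1 (-5.13 points, adjusted p = 0.115) and Tbx3 (-4.77 points, adjusted p = 0.131). They covered from 28.7% of Oat in NOD/ShiLtJ and 29.6% in PWK/PhJ, through a median of 50.4%, to 79.1% in WSB/EiJ. The mean of 54.9% ± 18.4 was 38.6 points above the genome (higher in 9 of 9 strains, exact sign-flip permutation test, adjusted p = 0.00491). States 1 to 4 covered 6.09% in A/J, a median of 11.3%, and 25.2% in PWK/PhJ. That was higher than the genome in 8 of 9 strains (exact sign-flip permutation test, adjusted p = 0.00909), but the excess of 4.82 points was smaller than its SD of 5.71 points, and against the share over all coding spans the value became -0.358 points (adjusted p = 0.889).

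Along Oat the start and the body differed. In the first 2 kb after the start, states 1 and 3 held 70% to 100% of the bins in every strain. From 2 to 6 kb after the start, states 5 and 7 held 90% in CAST/EiJ and NZO/HlLtJ, 85% in 129S1/SvImJ, 80% in C57BL/6J and 65% in DBA/2J, state 12 held 75% in WSB/EiJ and 60% in A/J, and states 1 to 4 held 65% in PWK/PhJ. Beyond 8 kb after the start, states 10 and 13 held 72.3% to 100% in 7 strains. In NOD/ShiLtJ and PWK/PhJ they held 41.5% and 38.5%, and state 14 held 58.5% and 60%. These are the same 2 strains in which Cyp2e1 lacked states 5 and 7.

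**Figure D3:**
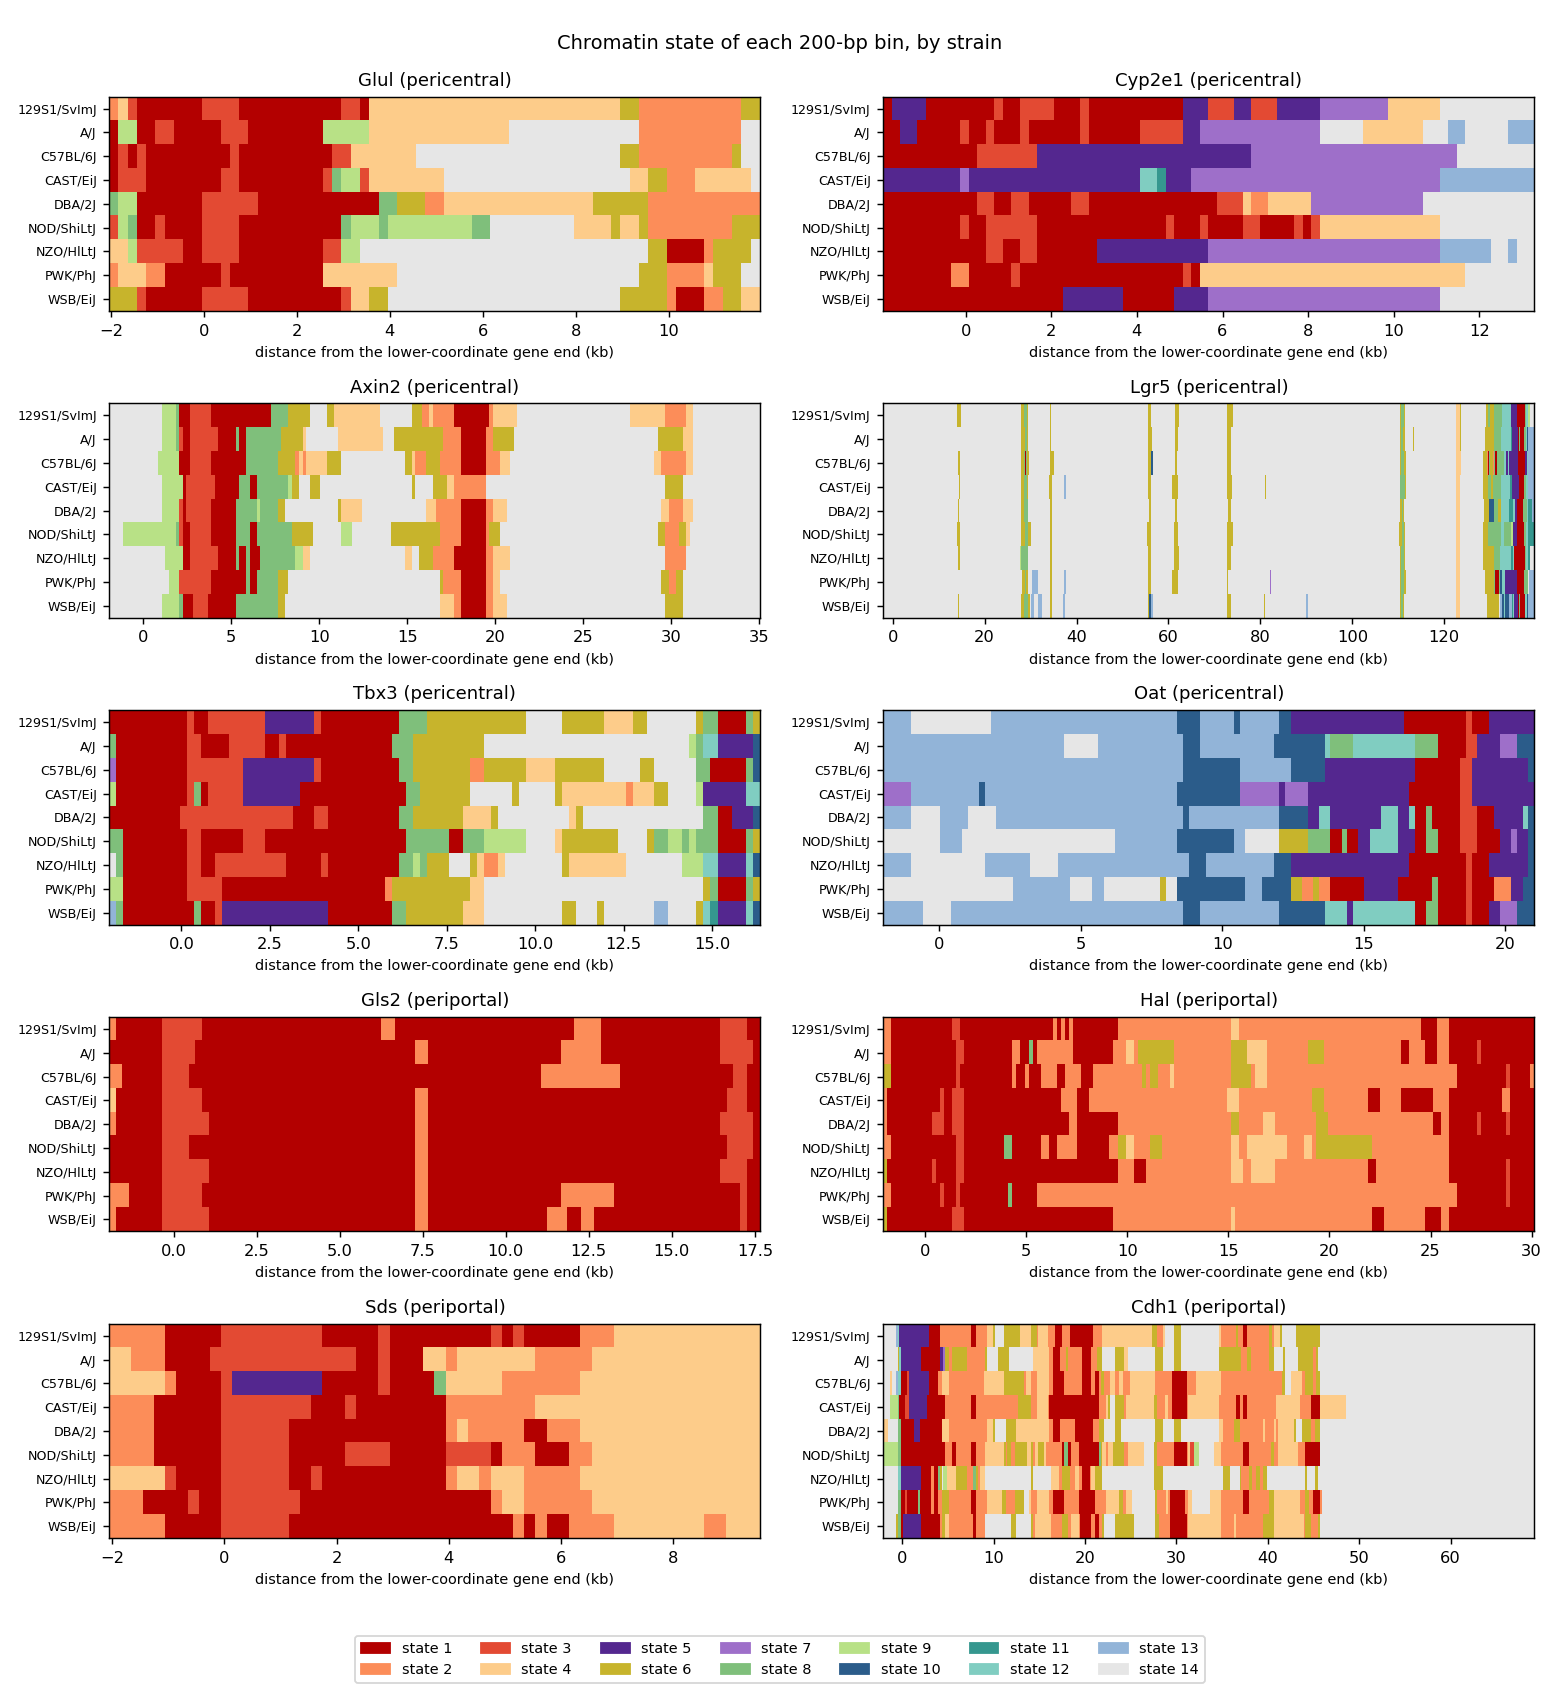
State of every 200-bp bin (colour) along the padded span of each gene (horizontal axis, kb from the lower-coordinate end of the gene), with 1 row per strain. Gls2 is filled with states 1 to 3 nearly throughout, and Cdh1 changes to state 14 at about the same place in all strains. In the downstream part of Cyp2e1, state 7 appears in 7 strains and not in NOD/ShiLtJ and PWK/PhJ. State 4 appears there in NOD/ShiLtJ, PWK/PhJ, 129S1/SvImJ, A/J and DBA/2J.

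Gls2 encodes the liver glutaminase, which releases ammonia from glutamine for the urea cycle upstream of Glul in the lobule. It lies at chr10:128194635-128210004, and its flanks touch Spryd4. All of its 98 bins were in states 1 to 4 in all 9 strains, so the share was 100% with no spread (92.6 points above the genome, exact sign-flip permutation test, adjusted p = 0.00474). State 3 stood at the lower-coordinate end in every strain, in a segment of 800 to 1400 bp.

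Hal encodes histidine ammonia-lyase, the first enzyme of histidine breakdown. It lies at chr10:93488768-93516761. In it, states 1 to 4 covered 87.0% in NOD/ShiLtJ, 88.8% in A/J, a median of 98.1% and 100% in 129S1/SvImJ. The mean was 95.9% ± 4.92 (9 of 9 strains above the genome, exact sign-flip permutation test, adjusted p = 0.00474). The start bin was in state 1 in all strains. State 2 held 57.3% to 100% of the stretch from 10 to 25 kb after the start, and the bins outside states 1 to 4 were in state 6 or, in 3 strains, state 8.

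Sds encodes serine dehydratase, which turns serine into pyruvate. It lies at chr5:120476547-120483932, and its flanks touch Plbd2. There, states 1 to 4 covered 100% of its bins in 8 strains and 84.5% in C57BL/6J (mean 98.3% ± 5.17, 9 of 9 above the genome, exact sign-flip permutation test, adjusted p = 0.00474). The lower-coordinate end was in state 3 in every strain. In C57BL/6J, and in no other strain, a segment of 1600 bp right inside that end (chr5:120476601-120478200) was in state 5. State 4 first appeared at 3.45 kb (A/J) to 6.85 kb (129S1/SvImJ and WSB/EiJ) from that end.

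Cdh1 encodes E-cadherin, the adhesion protein of epithelial cell junctions, which is more abundant in periportal hepatocytes. It lies at chr8:106603350-106670247. The share in states 1 to 4 was 13.8% in NZO/HlLtJ, 20.5% in A/J, a median of 41.3% and 60.7% in CAST/EiJ. All strains were above the genome (mean 41.3% ± 15.8, 9 of 9, exact sign-flip permutation test, adjusted p = 0.00474). The last bin outside state 14 ended 45.5 to 45.9 kb from the lower-coordinate end in 8 strains and at 48.5 kb in CAST/EiJ. The remaining part of the gene was in state 14 in all strains. From 5 to 46 kb, states 1 to 4 held 19.02% in NZO/HlLtJ and 91.2% in CAST/EiJ. State 5 held the whole of the first 2 kb in 129S1/SvImJ, A/J, NZO/HlLtJ and WSB/EiJ, 30% in DBA/2J, and none in NOD/ShiLtJ and PWK/PhJ.

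States 5 and 7 were looked at across all 10 genes after their extent in Cyp2e1 had been seen, so the following is a description with no test. They were present in at least 1 bin of at least 1 strain in 6 genes, against 14.6% of all autosomal protein-coding genes, and absent in every strain from Glul, Axin2, Gls2 and Hal. Among the 10 genes, over 5% of the span on average was reached by Cyp2e1 (35.4%), Oat (17.1%) and Tbx3 (7.61%), all pericentral. Over that level lay 1.08% of all autosomal protein-coding genes, and 2.01% with chromosome X included. Oat ranked 19 and Tbx3 ranked 131 of 20665. Cdh1 had 2.34%, Sds 1.53% and Lgr5 0.957%. In the 12 further pericentral genes described below, only Rgn, on chromosome X, was over 5%, at 27.98%. The next highest there was Slc1a2 at 1.16%. The highest of the 12 further periportal genes was Aldh1b1 at 2.27%. Passing 5% was therefore not general among pericentral genes. The bile duct marker Sox9 (8.33%) and the endothelial marker Clec4g (8.11%) were also over 5% in states 5 and 7. Of the 10 genes, 2 carried these states in NOD/ShiLtJ and in PWK/PhJ and 4 to 6 did so in each other strain. Cyp2e1, Tbx3 and Cdh1 were all at 0% in NOD/ShiLtJ and PWK/PhJ and above 0% in the other 7 strains. Oat and Lgr5 did not follow this. Oat had 8.70% in NOD/ShiLtJ and 6.96% in PWK/PhJ, more than A/J at 6.09% and WSB/EiJ at 5.22%. Lgr5 was highest in PWK/PhJ and C57BL/6J, both at 1.98%, and at 0% in NZO/HlLtJ. Genome-wide the 2 strains were not alike: the autosomal share of these states was 0.0423% in NOD/ShiLtJ and 0.0831% in PWK/PhJ, the highest of the 9 strains. The reason for the pattern shared by Cyp2e1, Tbx3 and Cdh1 was not tested.

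**Figure D4:**
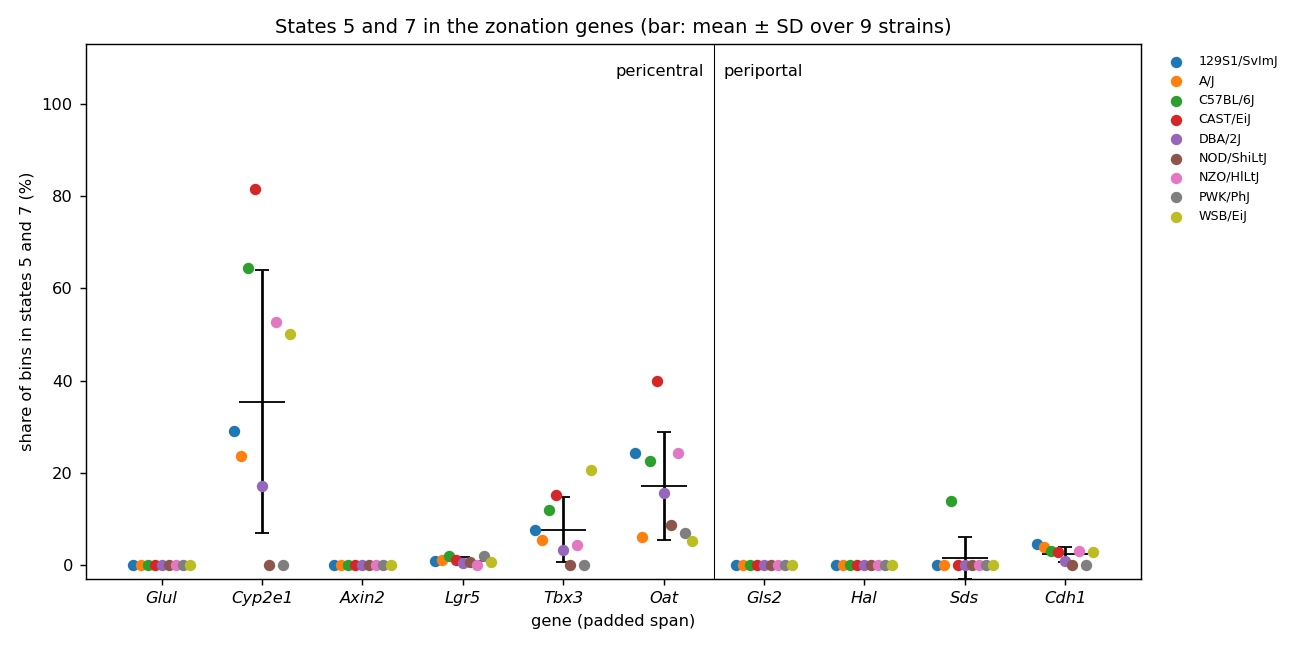
Share of each gene's bins in states 5 and 7 (vertical axis, percent) for the 10 zonation genes (horizontal axis). Points are the 9 strains and bars the mean ± SD. Cyp2e1 runs from 0% in NOD/ShiLtJ and PWK/PhJ to 81.6% in CAST/EiJ, Oat from 5.22% to 40%, and Glul, Axin2, Gls2 and Hal are at 0%.

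The last comparison asked how far the strains differed in each gene. The measure is the percentage of bins in different states, averaged over the 36 pairs of strains. It was 56.2% in Cyp2e1, 50.2% in Glul, 46.1% in Oat and 45.5% in Tbx3, higher than in 96.6% to 99.4% of all protein-coding genes. Cdh1 followed at 37.3%, Sds at 33.1%, Axin2 at 27.9% and Hal at 24.1%. Gls2 at 11.3% and Lgr5 at 7.20% were the least different. The median was 45.8% over the pericentral genes, 28.6% over the periportal genes and 19.7% over all protein-coding genes. In the further zone genes described below the medians were alike, at 27.2% over 12 pericentral and 27.3% over 12 periportal genes. In each of these 2 lists 7 genes were over 25%. Over 25% were 7 of the 10 genes, beside 34.9% of all genes, and under 10% was Lgr5, beside 22.6% of all genes. Among bins outside state 14 in at least 1 strain, the count over 25% was 8 of 10 beside 82.4% of all genes with such bins, so the members' share was then near the background. In Lgr5 the strains differed in 38.1% of those bins. The most alike pair in Cyp2e1 was NZO/HlLtJ and WSB/EiJ at 27.6%, and in Glul 129S1/SvImJ and DBA/2J at 30%. Bins in the same state in all strains made up 0% of Cyp2e1, 4.35% of Oat and 12.9% of Glul, against 73.5% of Gls2 and 82.5% of Lgr5.

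**Figure D5:**
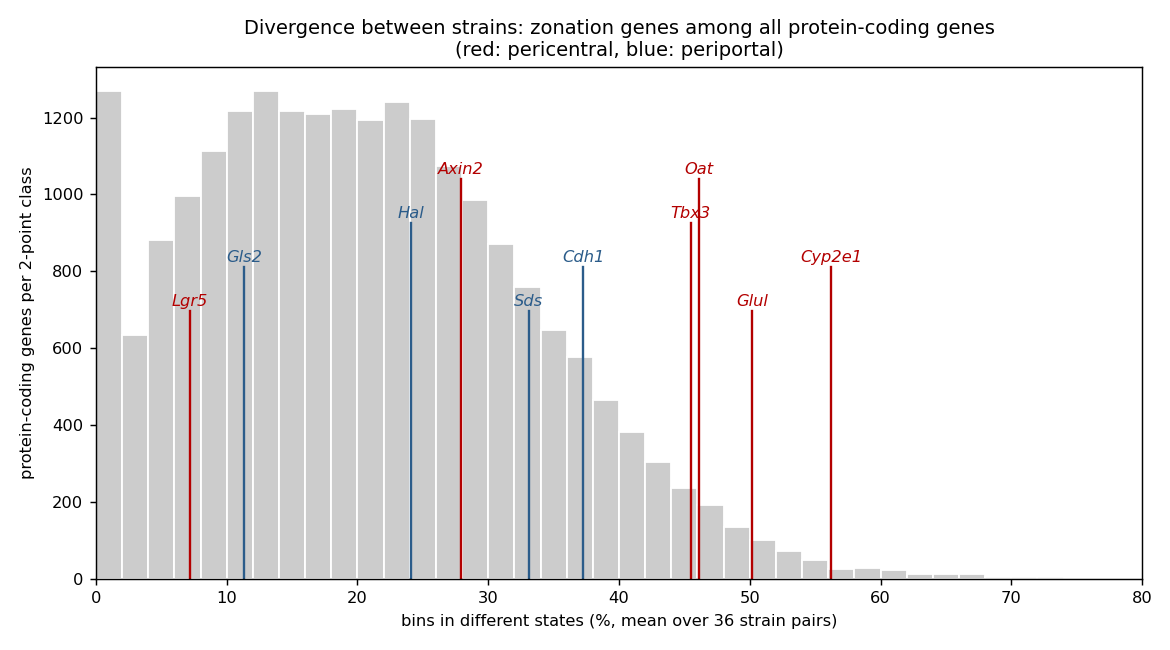
Number of protein-coding genes (vertical axis) by the percentage of bins in different states, mean over 36 strain pairs (horizontal axis, classes of 2 points), with lines at the pericentral (red) and periportal (blue) genes. Cyp2e1, Glul, Oat and Tbx3 lie in the right tail at 45.5% and above.

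Further genes of the 2 zones were read the same way. Of 12 further periportal genes, 12 had more of states 1 to 4 than the genome by the same test, and their median was 97.7%. Pck1, the gluconeogenic enzyme, was at 100% and Asl, of the urea cycle, at 99.7%, and the lowest were Aldh1b1 at 53.7% and Cps1 at 58.4%. Of 12 further pericentral genes, 8 were higher, 1 was lower and 3 were not called, with a median of 55.4%. The median over all protein-coding genes was 6.92%, and 43.9% of them were called higher and 46.7% lower. Por, the reductase that serves cytochromes P450, was at 99.0% and Cyp1a2 at 96.4%. The gene called lower was Slc22a3, a cation transporter, at 2.90%, and Rhbg, an ammonium transporter, was at 5.97% (exact sign-flip permutation test, adjusted p = 0.323). The other genes not called were Slc1a2, a glutamate transporter, at 7.61% and Rgn at 13.9%, named after their values were seen.

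The Wnt pathway was read by role. Beside the counts stand the shares over all protein-coding genes: 43.9% higher and 46.7% lower for states 1 to 4. For states 10, 12 and 13 they were 18.4% higher and 70.6% lower. Of the 4 ligands and enhancers, which endothelial cells supply, 3 were lower than the genome in states 1 to 4 and 4 were higher in states 10, 12 and 13. Wnt2 and Rspo3 had no bin in states 1 to 4 in any strain, Rspo1 had 3.98%, and Wnt9b, the one called higher, had 20.2%. All 7 receptors and surface regulators were higher in states 1 to 4, with a median of 67.4%, from Znrf3, a ligase that removes Wnt receptors, at 27.5% to the receptor Fzd7 at 90.4%. Of the 10 cytoplasmic and nuclear components 7 were higher and 3 lower, with a median of 24.8%. Dvl1 at 68.2% and Tcf7l2, the TCF factor, at 45.7% were highest, and Lef1 at 0% and Axin1 at 2.91% lowest. Feedback targets were divided, 3 higher and 3 lower, close to the shares over all genes, with a median of 26.5%. Among these, Ccnd1 was at 93.1% and Notum at 63.4%, whereas Dkk1 was at 0% and Sp5 at 0.635%.

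For each of the 10 genes the protein-coding gene with the most similar state shares over the 9 strains was sought. The distance is the sum of absolute differences of the 14 state shares divided by 2, averaged over the strains, in percentage points. Gls2 had the closest match, the liver transcription factor gene Foxa3, at 4.16 points, and Hal was closest to Agxt, an amino acid enzyme of hepatocytes, at 10.1. Lgr5 was closest to Nck2 at 5.31, Axin2 to Zbtb38 at 12.7, Sds to Furin at 13.6 and Cdh1 to Tmigd1 at 14.1. Glul was closest to the complement gene C2 at 22.2 and Tbx3 to Ythdf2 at 24.98. Oat was closest to Bcor at 31.9, a gene on chromosome X. Cyp2e1 had no near match: its closest, Ifitm2, was 45.6 points away, beside a median of 83.1 over all protein-coding genes.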

How the data were processed

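Per the labels, ChIP-seq libraries of 4 marks from 3 mice per strain and 1 input library per strain were made. The authors deposited 1 segmentation per strain, whose state number is a category and not a count, signal or score. The submitters' processing notes name mm10, FastQC 0.11.5 and MACS 1.4.2, with no role or order; the aligner and segmentation tool are not given in the sources used here. Depth is unknown, so no interval for counting error is given.

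Segments were cut into 200-bp bins. Gene positions came from a RefSeq table of GRCm38.p6, which gives no strand; promoter entries gave strand and start for 5 of the 10 genes, and both gene ends were read for the other 5. For each of 21631 protein-coding genes, the share of bins in a class of states was set against the genome share of the same strain by an exact sign-flip permutation test, two-sided, over the strains (512 patterns, smallest p 0.0039), Benjamini-Hochberg adjusted, called under 0.05. Because a strain is 1 value, a p measures spread between strains only. The named genes are the 10 members, the highest and lowest of each list by their share of states 1 to 4, and the nearest gene by state shares. Members and lists were chosen with earlier results of these data known; the readings of states 5 and 7, of bins shared by all strains and of windows along genes were chosen after seeing the data. Of the hepatocyte markers, Tf was not found under that symbol. Code was tested on simulated data. Python 3.11.15, numpy 2.4.6, pandas 2.3.3 and matplotlib 3.10.9 were used.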

Additional observations from a re-analysis of the deposited data

Results flagged for a closer look

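In 6 of 31 sets of 9 strain values, 1 strain lay far from the rest by Dixon's test. A rate of 1 in 20 would give 1.55 sets, but only for independent sets without ties. The sets overlap and some hold ties, so no excess is read from the count. In Tbx3 the share of states 1 to 4 was 27.2% in WSB/EiJ, and the nearest other strain was at 42.4%. In Oat it was 25.2% in PWK/PhJ, with the nearest at 14.8%. In Sds it was 84.5% in C57BL/6J and 100% in the other strains, and states 5 and 7 covered 13.8% in C57BL/6J and 0% elsewhere. These 2 Sds sets largely count the same bins. With the other strains tied, any deviation of 1 strain would have been flagged. In Lgr5 states 10, 12 and 13 covered 5.65% in WSB/EiJ, with the nearest at 2.97%. In Gls2, C57BL/6J differed from the other strains in 16.8% of bins on average, with the next strain at 13.01%.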

How the results depend on the processing

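The calls of the 10 genes changed under few alternatives. For states 1 to 4, Oat was no longer called with 5 kb of padding (2.29 points above the genome, adjusted p = 0.171) or with state 6 added (3.30 points, adjusted p = 0.251), and turned to -0.358 points with all coding spans as the reference. For states 10, 12 and 13, Cyp2e1 and Tbx3 were no longer called with 5 kb of padding (-5.13 and -4.77 points, adjusted p = 0.115 and 0.131). Those p-values are from exact sign-flip permutation tests. With bins outside state 14 only, 8 of the 10 genes differed in over 25% of bins and 0 in under 10%, beside 17312 (82.4%) of all genes over 25% and 810 under 10%. With a match allowed within 1 bin, 5 of the 10 were over 25% and 2 under 10%, and 4092 (18.9%) of all genes were over 25%. Without C57BL/6J, Gls2 also fell under 10%, so leaving out each strain gave 1 to 2 such genes. The zone difference was -65.1 points with medians over genes, and -65.0 to -44.6 points with each gene or strain left out. Counting states 11 and 12 with states 5 and 7 raised the autosomal genes over 5% to 817 and moved Cyp2e1 from rank 2 to rank 31 (rank 6 with no padding); this was chosen after seeing the data. The cause was not tested. Leaving out each strain changed none of the 10 genes' calls for either class of states. No paired analysis was possible because each strain has 1 deposited segmentation with no replicate number. Unknown depth per strain limits every difference between strains.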
